A study of Mus musculus with 11 samples.

Results

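The genes described here are 42 mouse genes that repair DNA double-strand breaks and interstrand crosslinks. They were picked by symbol from a list of homologous recombination, Fanconi and end-joining genes, not by a rule on their measured values. The list was, however, chosen with earlier results of these data known. All 42 were found among the 54347 genes of the count table, Mre11a under that symbol, and 42 of 42 passed the filter on low counts. They fall into 8 roles, which are the Fanconi core complex with 8 genes, the Fanconi ID complex with 2, BRCA genes and their partners with 5, strand exchange factors with 9, end resection and unwinding with 2, break sensing and checkpoint kinases with 7, end joining with 7, and chromatin-bound break responders with 2.

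The RNA came from bone marrow of female C57BL/6NTac mice, which carried no engineered allele or treatment per the labels; their age was not given in the sources used here. From marrow of crushed leg and hip bones, after removal of lineage-positive cells, flow cytometry gave long-term hematopoietic stem cells (LT-HSCs; CD150+CD48- cells within the LSK compartment) with endomucin on the surface (EMCN+, n = 4), LT-HSCs without it (EMCN-, n = 3), and granulocyte-monocyte progenitors (GMPs, n = 4), a more differentiated population. Between 3000 and 5000 sorted LT-HSCs went into each LT-HSC sample, and the replicate number is the mouse number, so that libraries with 1 number come from 1 animal. The submitters removed 1 EMCN- library, that of mouse 3, for poor quality.

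Library totals ranged from 3.63 to 11.1 M estimated counts, and levels below are counts scaled by library size with TMM factors (CPM), where 3 counts are worth 0.209 to 0.705 CPM. The labelled cell types were checked against marker genes. The LT-HSC markers include Slamf1, the gene of CD150, and Ly6a, whose product is also part of the sort gate. For these genes the sorting itself set the outcome in part. The 10 LT-HSC markers summed to 1017 to 1644 CPM in LT-HSC libraries and 49.0 to 60.9 CPM in GMP libraries, and the 10 GMP markers to 45.8 to 80.9 and 17967 to 20848 CPM, with Ctsg at 0 in every EMCN+ library. The 8 lymphoid markers summed to 0.558 to 5.24 CPM in the 11 libraries, with Cd3e and Ncr1 at 0 in all of them, and the 7 mature granulocyte markers to 0.765 to 2.93 CPM in LT-HSCs and 119 to 533 CPM in GMPs. Mitochondrial ribosomal RNA took 13.9 to 22.1% of the counts in LT-HSC libraries and 26.5 to 29.3% in GMP libraries, and its part in the results was not tested. In such bulk samples, fewer cells of a type and less RNA per cell cannot be told apart.

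Broken DNA ends can be rejoined directly by end joining, which works at any time in the cell cycle, or repaired from the sister chromatid by homologous recombination, which needs replicated DNA and is used mostly in S and G2 phase. The Fanconi pathway detects interstrand crosslinks at stalled replication forks, marks the site with ubiquitin on FANCD2 and FANCI, and passes it on to nucleases and to recombination. Inherited loss of this pathway in people causes Fanconi anemia, a bone marrow failure syndrome, and LT-HSCs, which rarely divide, spend most of their time without the sister chromatid that recombination needs.

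LT-HSCs held less RNA of most recombination and crosslink repair genes than GMPs did under TMM scaling. By edgeR's quasi-likelihood test at a Benjamini-Hochberg adjusted p under 0.05, 27 of the 42 genes differed, which is 64.3% beside 62.5% of all 14915 genes tested. Of these, 21 were lower in LT-HSCs (50.0%, beside 29.9% of all genes) and 6 were higher (14.3%, beside 32.5%). The share called in either direction was therefore close to the background under TMM scaling, and the share called lower was above it. The median log2 difference of the 42 genes was -0.57, beside 0.03 over all genes. Scaling by total counts, which raised the median of all genes by 0.78 on the log2 scale, gave 9 lower and 16 higher. With that scaling 1907 of all 14915 genes were called lower and 9063 higher, and the median of the 42 genes was 0.21. The separation of libraries below is again under TMM scaling. In 19 genes every LT-HSC library lay below every GMP library (23.0% of all genes did so), and in 3 genes, Xrcc5, Trp53bp1 and Atm, every LT-HSC library lay above (25.0% of all genes).

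**Figure D1:**
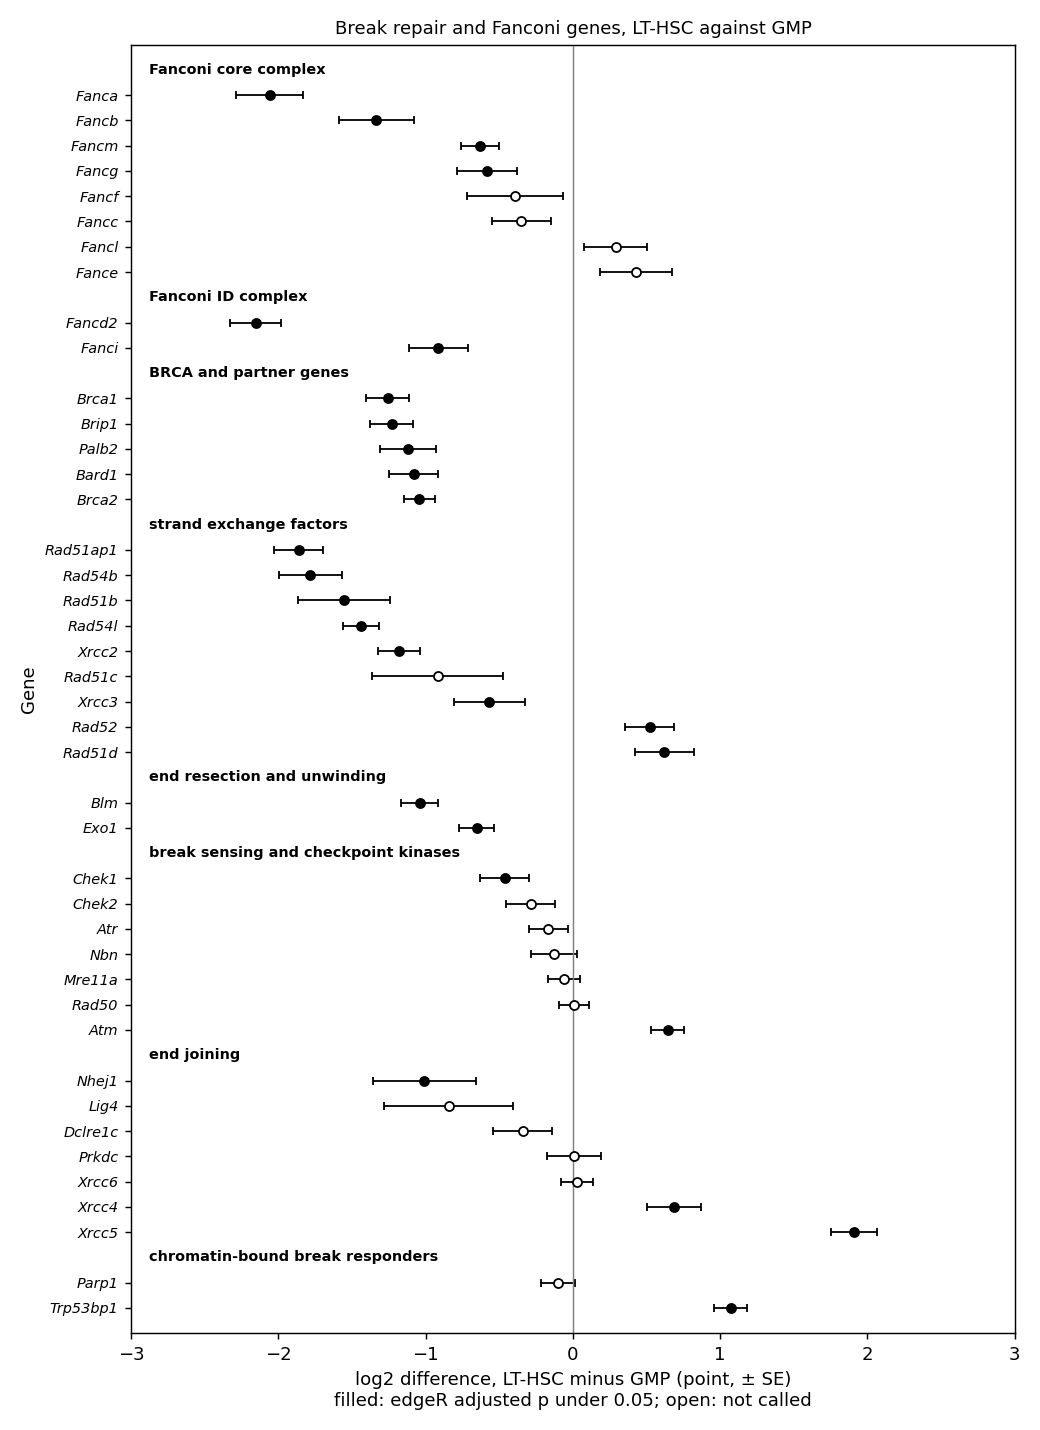
Log2 difference between LT-HSC (7 libraries) and GMP (4 libraries) for each of the 42 genes under TMM scaling, grouped by role, with bars of 1 standard error; filled points passed the edgeR test at an adjusted p under 0.05. Filled points lie left of 0 for 21 genes, among them all 5 BRCA and partner genes, and right of 0 for 6, led by Xrcc5 at 1.91. Of all genes tested, 29.9% were called lower and 32.5% higher. With total-count scaling 9 are called lower and 16 higher, beside 1907 and 9063 of all 14915 genes.

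The 20 proliferation markers moved in the same direction, with 20 of 20 lower in LT-HSCs under TMM scaling, beside 29.9% of all genes. Their median log2 difference was -1.47. With total-count scaling 12 were called lower and 1 higher, beside 1907 and 9063 of all 14915 genes. They summed to 1096 to 2013 CPM in LT-HSC libraries and 2670 to 3297 CPM in GMP libraries. Their part in the differences below was not tested.

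Of the 8 core complex genes, which together form the ligase that acts at crosslinks, 4 fell in LT-HSCs and none rose with TMM scaling. The share called, 50%, was below the 62.5% of all genes, of which 29.9% were lower and 32.5% higher. Total-count scaling left 1 called lower (Fanca) and 2 called higher (Fance and Fancl), beside 1907 and 9063 of all 14915 genes. Fanca (chr8:123268300-123318576), the gene most often mutated in Fanconi anemia, had 2.74 to 7.25 CPM in the LT-HSC libraries with a median of 4.68, and 20.5, 18.6, 20.5 and 18.8 CPM in GMP replicates 1 to 4. The highest LT-HSC value, in EMCN+ replicate 1, stayed below every GMP library. The log2 difference was -2.06 ± 0.23 (SE), edgeR adjusted p = 9.03e-08. A stretch of 920 exonic bases is shared with Zfp276 on the opposite strand, whose own log2 difference was -0.01.

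Fancb, a core subunit encoded on the X chromosome, fell by 1.33 on the log2 scale, Fancm, the translocase that anchors the core complex on DNA, by 0.63 and Fancg, a scaffold subunit, by 0.58. The edgeR adjusted p values were 1.11e-04, 1.98e-04 and 0.0179, and no LT-HSC library of the 3 genes reached the lowest GMP library. With total-count scaling Fancm and Fancg turned to 0.15 and 0.20, neither past the test, and Fancg was no longer called without GMP replicate 1 (-0.46, adjusted p = 0.0852) or with no low-count filter (adjusted p = 0.0700). Fancl, the subunit that carries the ligase activity, Fance, Fancc and Fancf did not pass the test, with log2 differences of 0.29, 0.43, -0.35 and -0.40.

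The 2 genes of the ID complex, the clamp that the core complex marks with ubiquitin, both fell in LT-HSCs (29.9% of all genes did so). Fancd2 (chr6:113531682-113597017) had 4.57 to 8.65 CPM in LT-HSC libraries with a median of 6.75, and 24.1, 36.9, 27.3 and 31.5 CPM in the GMP libraries. All 7 LT-HSC libraries lay well below the 4 GMP libraries, and the EMCN+ and EMCN- values overlapped. The log2 difference of -2.15 ± 0.17 (SE), edgeR adjusted p = 6.67e-10, was the largest fall among the 42 genes and was called under all 21 alternative settings. Fanci, its partner, fell by 0.91 on the log2 scale (edgeR adjusted p = 5.18e-04), from 23.7, 21.4, 22.1 and 27.6 CPM in GMPs to 6.35 to 17.5 CPM in LT-HSCs, and with total-count scaling its value of -0.13 did not pass the test. Fanci shares 921 exonic bases with Polg on the opposite strand, which fell by 0.36.

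All 5 genes of the BRCA group fell in LT-HSCs, by 1.04 to 1.26 on the log2 scale, beside 29.9% of all genes called lower. With total-count scaling all 5 kept a negative sign and 2, Brca1 and Brip1, stayed called. Brca1 (chr11:101488764-101551955), a ubiquitin ligase that promotes resection and recombination, had 18.4 to 33.4 CPM in LT-HSC libraries with a median of 25.4, and 62.8, 59.1, 52.6 and 63.8 CPM in the GMP libraries. No LT-HSC library came near the GMP range. The log2 difference was -1.26 ± 0.15 (SE), edgeR adjusted p = 3.77e-07.

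Brca2 (chr5:150522630-150570329), a mediator of homologous recombination, had 36 to 63 CPM in LT-HSCs with a median of 49.5, and 95.4, 95.6, 102 and 113 CPM in GMPs. The groups did not overlap, and the log2 difference was -1.04 ± 0.11 (SE) with an edgeR adjusted p of 2.38e-08. Bard1 (chr1:71027498-71103146), the obligate partner of BRCA1, had 10.3 to 18.8 CPM in LT-HSCs with a median of 12.1, and 24.9, 26.9, 21.9 and 33 CPM in GMPs. EMCN- replicate 1 was the highest LT-HSC library and still lay below the lowest GMP library, and the log2 difference was -1.08 ± 0.17 (SE) with an edgeR adjusted p of 8.97e-06.

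Both promoters hold an E2F string, a sequence that E2F factors recognise in genes switched on for S phase. They are shown because they are the 2 called genes whose window holds such a string outside annotated exons; both come from RefSeq's promoter table on GRCm38.p6, 5′ to 3′ on the gene's strand, with the string in capitals. The Brca2 window is chr5:150522371-150522620 on the plus strand, the 250 bases before the RefSeq start, and its string is an E2F string read on the other strand, 168 bases before the start. The Bard1 stretch is chr1:71103147-71103222 on the minus strand, the 76 bases of the window that no GENCODE exon covers, and its string lies 209 bases before the RefSeq start.
Brca2: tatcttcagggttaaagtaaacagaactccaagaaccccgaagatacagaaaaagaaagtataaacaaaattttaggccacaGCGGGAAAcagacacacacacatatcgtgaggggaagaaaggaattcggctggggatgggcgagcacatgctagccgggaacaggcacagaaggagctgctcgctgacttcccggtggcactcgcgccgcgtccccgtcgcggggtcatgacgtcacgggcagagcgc
Bard1: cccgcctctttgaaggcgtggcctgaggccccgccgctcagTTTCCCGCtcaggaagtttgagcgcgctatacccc

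Palb2 (chr7:122107262-122132985), which joins BRCA1 to BRCA2, had 8.72 to 14.7 CPM in LT-HSCs with a median of 9.91, and 30.9, 24, 23.4 and 15.7 CPM in GMPs, so that GMP replicate 4 was low but above all LT-HSC libraries. The log2 difference was -1.12 ± 0.19 (SE), edgeR adjusted p = 3.24e-05. Brip1 (chr11:86058138-86201193), a helicase that binds BRCA1, had 10.3 to 18.1 CPM in LT-HSCs with a median of 13.7, and 40.9, 32.8, 30.3 and 31.4 CPM in GMPs. The groups were again separate, with a log2 difference of -1.23 ± 0.15 (SE) and an edgeR adjusted p of 2.43e-07.

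**Figure D2:**
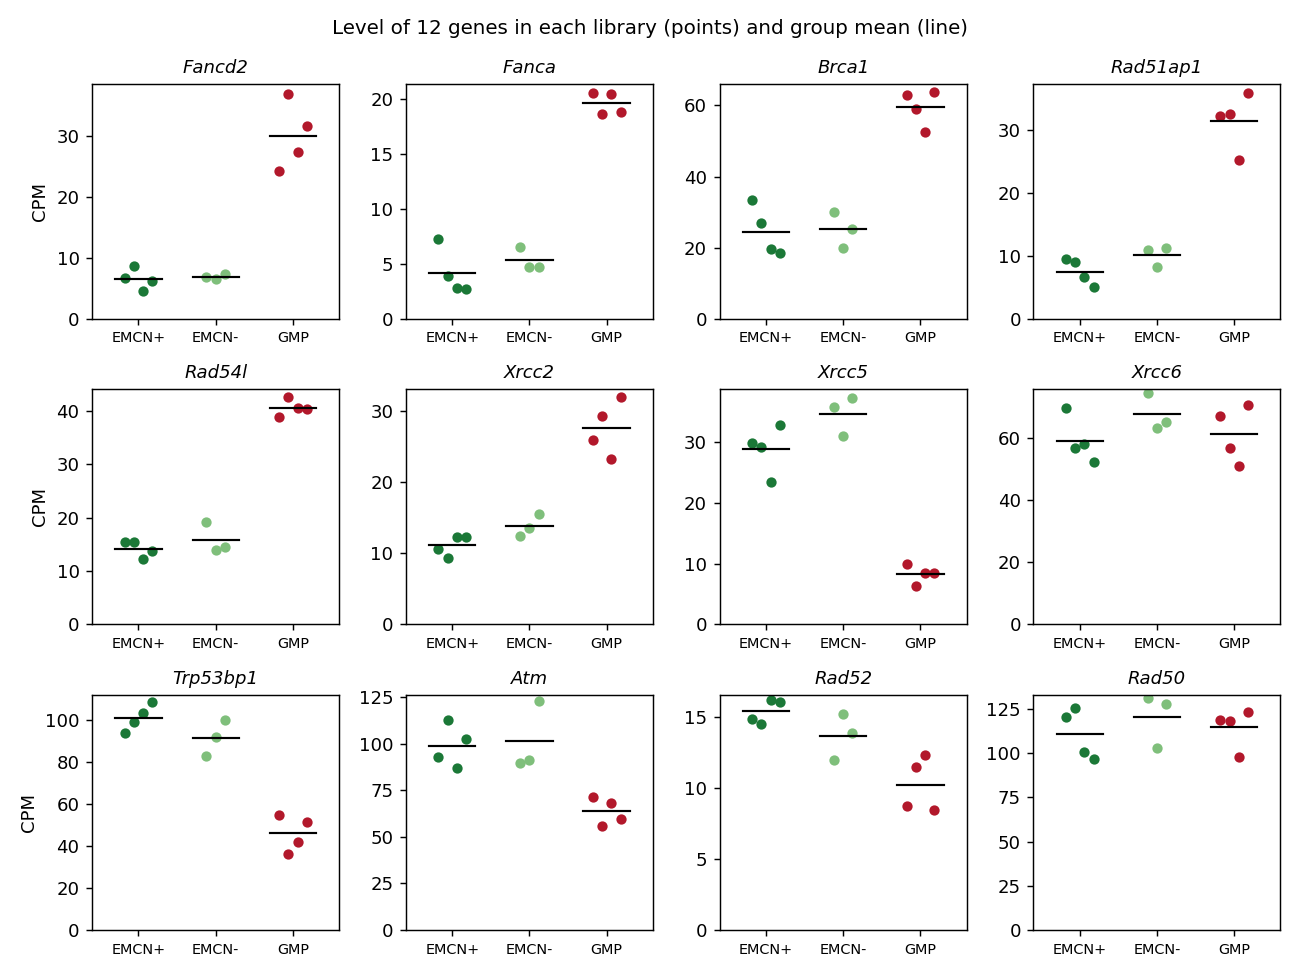
CPM with TMM factors (linear axes from 0) of 12 genes in each library, as points, with the group mean as a line, for EMCN+ (4), EMCN- (3) and GMP (4). The 6 recombination and Fanconi genes at the start sit lower in every LT-HSC library than in every GMP library, Xrcc5, Trp53bp1 and Atm sit higher, Rad52 overlaps between the groups, and the ranges of Xrcc6 and Rad50 also overlap.

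Among the 9 strand exchange factors, which help a broken end invade the sister duplex, 6 fell and 2 rose in LT-HSCs, with a median of -1.18. Of all genes, 29.9% were called lower and 32.5% higher. Total-count scaling turned 1 of the 6, Xrcc3, to 0.22, which did not pass the test. Rad51ap1 (chr6:126923050-126939587), which stimulates strand invasion, had 5.08 to 11.3 CPM in LT-HSCs with a median of 9.0, and 32.2, 32.5, 25.3 and 35.8 CPM in GMPs. The lowest GMP library, replicate 3, held more than the highest LT-HSC library, and the log2 difference was -1.86 ± 0.17 (SE) with an edgeR adjusted p of 3.92e-09.

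Rad54l (chr4:116094264-116123690), a motor protein that acts on DNA during strand exchange, had 12.3 to 19.3 CPM in LT-HSCs with a median of 14.6, and 39, 42.6, 40.5 and 40.3 CPM in GMPs. The GMP libraries stood close together and far above the LT-HSC range, with a log2 difference of -1.44 ± 0.12 (SE) and an edgeR adjusted p of 1.72e-09. It shares 1184 exonic bases with Lrrc41 on the opposite strand, which went the other way at 0.63.

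Rad54b (chr4:11558922-11615805), its paralog, had 3.39 to 11.3 CPM in LT-HSCs with a median of 7.91, and 23.8, 21.9, 26.4 and 26.1 CPM in GMPs. The LT-HSC values were scattered but all below the GMP values, with a log2 difference of -1.78 ± 0.21 (SE) and an edgeR adjusted p of 3.51e-07. Fsbp shares 2068 exonic bases with it on the same strand and also fell (-1.05), so the split of counts between the 2 genes is uncertain.

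Xrcc2 (chr5:25689812-25705825), a subunit of the BCDX2 complex, had 9.34 to 15.5 CPM in LT-HSCs with a median of 12.3, and 25.9, 29.2, 23.2 and 31.9 CPM in GMPs. The groups did not overlap, and the log2 difference was -1.18 ± 0.14 (SE) with an edgeR adjusted p of 3.01e-07. Rad51b, of the same complex, fell by 1.55 on the log2 scale, edgeR adjusted p = 1.88e-04, and was called under all 21 alternative settings. Xrcc3 fell by 0.57 with an edgeR adjusted p of 0.0458, just under the threshold, and lost its call with mouse as a block (adjusted p = 0.0585), with RLE factors, DESeq2 or another low-count filter (0.0530 to 0.127), and when any 1 of 8 libraries was left out, which were EMCN+ replicates 1, 2 and 4, EMCN- replicates 1 and 2, and GMP replicates 1, 2 and 3. Rad51c, counted at 1.80 ± 0.642 CPM in LT-HSCs (SD, n = 7 libraries from 4 mice), was not called at -0.92. It passed the test without GMP replicate 4 (-1.17, edgeR adjusted p = 0.0323) and among protein-coding genes alone (-0.93, adjusted p = 0.0464).

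Rad51d and Rad52 rose in LT-HSCs. Rad51d (chr11:82876434-82890614), a subunit that pairs with XRCC2, had 14.6 to 23.8 CPM in LT-HSCs with a median of 18.5, and 8.83, 14.5, 17.1 and 8.02 CPM in GMPs. GMP replicate 3 lay inside the LT-HSC range, and the log2 difference was 0.62 ± 0.20 (SE) with an edgeR adjusted p of 0.0104. Without GMP replicate 1 or replicate 4 the adjusted p was 0.0514 and 0.0554.

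Rad52 (chr6:119902698-119922828), which anneals single strands, had 11.9 to 16.2 CPM in LT-HSCs with a median of 14.8, and 8.68, 11.4, 12.3 and 8.40 CPM in GMPs. The groups overlapped only where GMP replicate 3 passed the lowest LT-HSC library, EMCN- replicate 1. The log2 difference was 0.52 ± 0.17 (SE), edgeR adjusted p = 0.0106, and the call held under all 21 alternative settings.

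Blm and Exo1, which unwind and chew back broken ends, fell in LT-HSCs with TMM scaling, while total-count scaling left Blm at -0.26 and turned Exo1 to 0.13, neither past the test. Blm (chr7:80454733-80535119), the Bloom syndrome helicase, had 18.6 to 24.5 CPM in LT-HSCs with a median of 19.8, and 41.2, 43.1, 32.6 and 53.4 CPM in GMPs. The groups did not overlap, with a log2 difference of -1.04 ± 0.13 (SE) and an edgeR adjusted p of 3.62e-07. Exo1, a nuclease, fell by 0.65 on the log2 scale, edgeR adjusted p = 5.80e-05.

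Of the 7 break sensing and checkpoint genes 1 rose in LT-HSCs, 1 fell and the other 5 did not pass the test under TMM scaling. The share called was 28.6%, beside 62.5% of all genes. Their median log2 difference was -0.13. With total-count scaling 6 of the 7 were called higher, beside 9063 of all 14915 genes. Atm (chr9:53439149-53536740), the kinase that responds to double-strand breaks, had 86.7 to 123 CPM in LT-HSCs with a median of 92.8, and 71.5, 55.8, 68.3 and 59.7 CPM in GMPs. Each LT-HSC library was above each GMP library, and the log2 difference was 0.64 ± 0.11 (SE) with an edgeR adjusted p of 3.80e-05. Chek1, the kinase downstream of ATR, fell by 0.46 (edgeR adjusted p = 0.0194), a call lost without GMP replicate 1 (-0.29, adjusted p = 0.152) and without EMCN+ replicate 2 (-0.41, adjusted p = 0.0512).

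The 3 genes of the MRN complex, which binds broken ends first, did not pass the test. Rad50 had 121, 126, 101 and 96.9 CPM in EMCN+, 131, 103 and 128 in EMCN- and 119, 118, 98.1 and 123 in GMP libraries. The 3 ranges overlapped, and the 95% interval of the log2 difference between LT-HSCs and GMPs was -0.21 to 0.22. Like it, the intervals for Mre11a, -0.29 to 0.17, and Nbn, -0.45 to 0.19, lay within 1.5-fold in either direction. These intervals hold for TMM scaling alone, since with total-count scaling Rad50 (0.79), Mre11a (0.72) and Nbn (0.67) were all called higher by edgeR. Atr, the kinase of stalled forks, had -0.17 and Chek2, the kinase downstream of ATM, -0.29, which passed the test without GMP replicate 4 (-0.41, edgeR adjusted p = 0.0397).

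Of the 7 end-joining genes, 2 rose and 1 fell in LT-HSCs, with a median of 0.01 under TMM scaling. The share called was 42.9%, beside 62.5% of all genes. With total-count scaling 4 were called higher and none lower, beside 9063 and 1907 of all 14915 genes. Xrcc5 (chr1:72307421-72394952) encodes the larger subunit of Ku, the ring that threads onto broken ends, and had 23.4 to 37.1 CPM in LT-HSCs with a median of 31, and 9.94, 6.37, 8.42 and 8.40 CPM in GMPs. Every LT-HSC library held more than every GMP library by a wide margin. The log2 difference of 1.91 ± 0.15 (SE), edgeR adjusted p = 8.33e-10, was the largest rise among the 42 genes.

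Xrcc6, the other Ku subunit, had 69.5, 56.6, 57.9 and 52.2 CPM in EMCN+, 74.5, 63.3 and 65.1 in EMCN- and 67, 56.8, 51 and 70.7 in GMP libraries. The ranges overlapped, and the 95% interval of the log2 difference was -0.20 to 0.25. With total-count scaling Xrcc6 was called higher in LT-HSCs at 0.81 (edgeR adjusted p = 1.35e-05), and at 0.42 with that scaling over protein-coding genes alone (adjusted p = 6.13e-04). As background, the Ku proteins are stable only as a pair.

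The promoter of Xrcc5 is shown because its RNA moved apart from that of its partner, a choice made after the values were seen. The window is chr1:72307171-72307420 on the plus strand, the 250 bases before the RefSeq start on GRCm38.p6, 5′ to 3′. It holds no E2F string, and the capitals mark a CCAAT box read on the other strand, 169 bases before the start.
Xrcc5: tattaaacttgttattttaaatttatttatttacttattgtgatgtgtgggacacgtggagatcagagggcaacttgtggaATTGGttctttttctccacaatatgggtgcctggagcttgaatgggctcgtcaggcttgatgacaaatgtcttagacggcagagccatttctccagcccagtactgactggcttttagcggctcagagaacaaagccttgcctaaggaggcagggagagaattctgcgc

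Xrcc4 (chr13:89774027-90089608), the scaffold of DNA ligase IV, had 8.11 to 17.1 CPM in LT-HSCs with a median of 14.8, and 7.57, 8.49, 8.42 and 9.70 CPM in GMPs. EMCN- replicate 1 was the lowest LT-HSC library and lay inside the GMP range, and the log2 difference was 0.69 ± 0.18 (SE) with an edgeR adjusted p of 0.00277. Tmem167, which shares 112 exonic bases with it on the opposite strand, fell by 1.39. Nhej1, which bridges the ligase complexes, fell by 1.01 (edgeR adjusted p = 0.0166) from 4.10, 5.71, 3.64 and 4.29 CPM in GMPs to 1.56 to 3.08 CPM in LT-HSCs; without GMP replicate 2 its adjusted p was 0.0718. Lig4, the ligase itself, was near the detection limit in some libraries, at 0.782 to 2.58 CPM in LT-HSCs and 5.05, 5.39, 2.05 and 1.49 CPM in GMPs, and was not called (-0.84) except without GMP replicate 4 (-1.10, edgeR adjusted p = 0.0399). Prkdc, the kinase recruited by Ku, and Dclre1c, the Artemis nuclease, had log2 differences of 0.01 and -0.34 and were not called, while total-count scaling gave Prkdc 0.79 (edgeR adjusted p = 4.88e-04).

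Trp53bp1 (chr2:121193281-121271407), which binds chromatin at breaks and restrains resection, had 82.5 to 108 CPM in LT-HSCs with a median of 99, and 54.6, 36.1, 41.9 and 51.1 CPM in GMPs. The groups did not overlap, and the log2 difference was 1.07 ± 0.11 (SE) with an edgeR adjusted p of 4.04e-08. Tubgcp4 overlaps it by 2130 exonic bases on the opposite strand and fell by 0.58, and the strand setting used in counting was not given in the sources used here. Parp1, which senses single- and double-strand breaks, had 174, 163, 116 and 127 CPM in EMCN+, 171, 176 and 161 in EMCN- and 195, 171, 135 and 164 in GMP libraries and was not called (-0.10), while total-count scaling gave 0.68.

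Ratios of estimated counts of 2 genes within a library do not depend on the scaling between libraries. The pairs were chosen after the values were seen and are given as a description. Xrcc5 over Xrcc6 was 0.404 to 0.629 in the 7 LT-HSC libraries, with a median of 0.490, and 0.148, 0.112, 0.165 and 0.119 in GMP replicates 1 to 4. Every LT-HSC library thus held more Xrcc5 for each count of Xrcc6 than any GMP library. Trp53bp1 over Brca1, genes that oppose each other in the choice of repair route, was 2.75 to 5.89 in LT-HSCs and 0.610 to 0.869 in GMPs. Atm over Atr was 1.46 to 2.62 in LT-HSCs and 0.884 to 1.30 in GMPs, and Fancd2 over Fanci was 0.386 to 0.795 and 1.02 to 1.73. In these 4 pairs the ranges did not overlap. Because the pairs were picked from these same values, this is no separate support for the differences above. The share of all gene pairs that separate in this way was not computed.

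**Figure D3:**
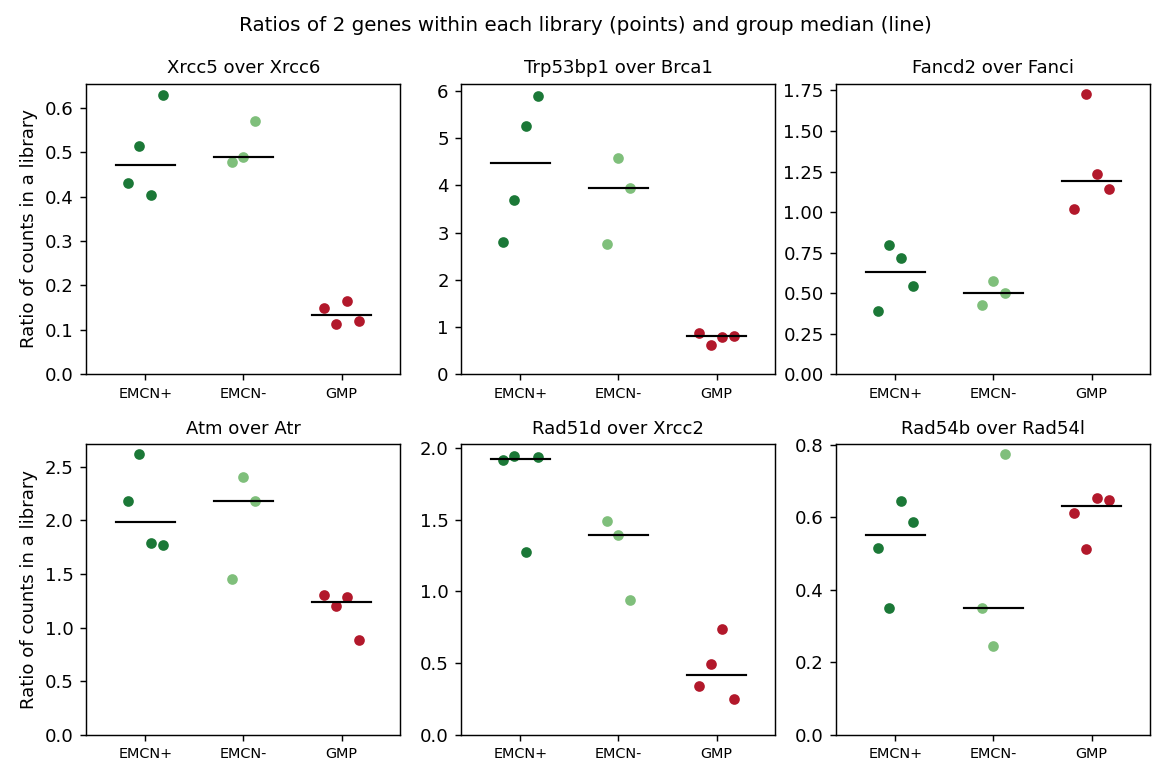
Ratio of the estimated counts of 2 genes in the same library (linear axes from 0), as points, with the group median as a line, for EMCN+ (4), EMCN- (3) and GMP (4). Xrcc5 over Xrcc6 lies at 0.404 to 0.629 in LT-HSCs and at 0.112 to 0.165 in GMPs, whereas Rad54b over Rad54l overlaps between the populations.

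Per kilobase of the longest coding transcript in GENCODE, Parp1 had the highest mean level of the 42 genes in LT-HSCs, at 40.2 CPM per kb, followed by Rad50 at 22.4 and Xrcc6 at 19. The same 3 genes led in GMPs, at 43, 22.2 and 18.6 CPM per kb. Xrcc5 came next in LT-HSCs at 12.2 CPM per kb and stood at 3.24 in GMPs, where Rad51ap1 at 14.1 and Rad54l at 13.4 came next after the leading 3. Lig4 was lowest in both, at 0.385 and 0.695 CPM per kb. Neighbours in this order were not tested against each other.

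Of 72 other genes of the same pathways, all tested, 50 were called under TMM scaling (69.4%, beside 62.5% of all genes). In LT-HSCs 40 fell and 10 rose, beside 29.9% of all genes lower and 32.5% higher, with a median log2 difference of -0.44. With total-count scaling 16 were called lower and 35 higher, beside 1907 and 9063 of all 14915 genes. Rpa3, a subunit of the protein that coats single-stranded DNA, fell from 55.6 ± 5.10 CPM in GMPs (SD, n = 4) to 8.13 ± 2.30 CPM in LT-HSCs (SD, n = 7 libraries of both fractions from 4 mice). The log2 difference was -2.82 ± 0.15 (SE). Sem1, a small partner of BRCA2, fell by 2.48, Tipin, a fork protection factor, by 1.88 and Swi5, a recombination cofactor, by 1.44. The edgeR adjusted p values of these 4 were 1.03e-12, 1.88e-15, 3.53e-12 and 7.98e-12. Cyren, which regulates end joining, rose from 5.04 ± 1.34 CPM in GMPs (SD, n = 4) to 14.6 ± 2.62 CPM in LT-HSCs (SD, n = 7 libraries from 4 mice), at 1.53 ± 0.22 (SE). Fan1, a crosslink nuclease, rose by 0.98, Ercc4, a nuclease subunit, by 0.55 and Mdc1, an adaptor of marked chromatin at breaks, by 0.50. The edgeR adjusted p values of Cyren, Fan1, Ercc4 and Mdc1 were 3.00e-06, 0.000785, 0.000913 and 0.000159.

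**Figure D4:**
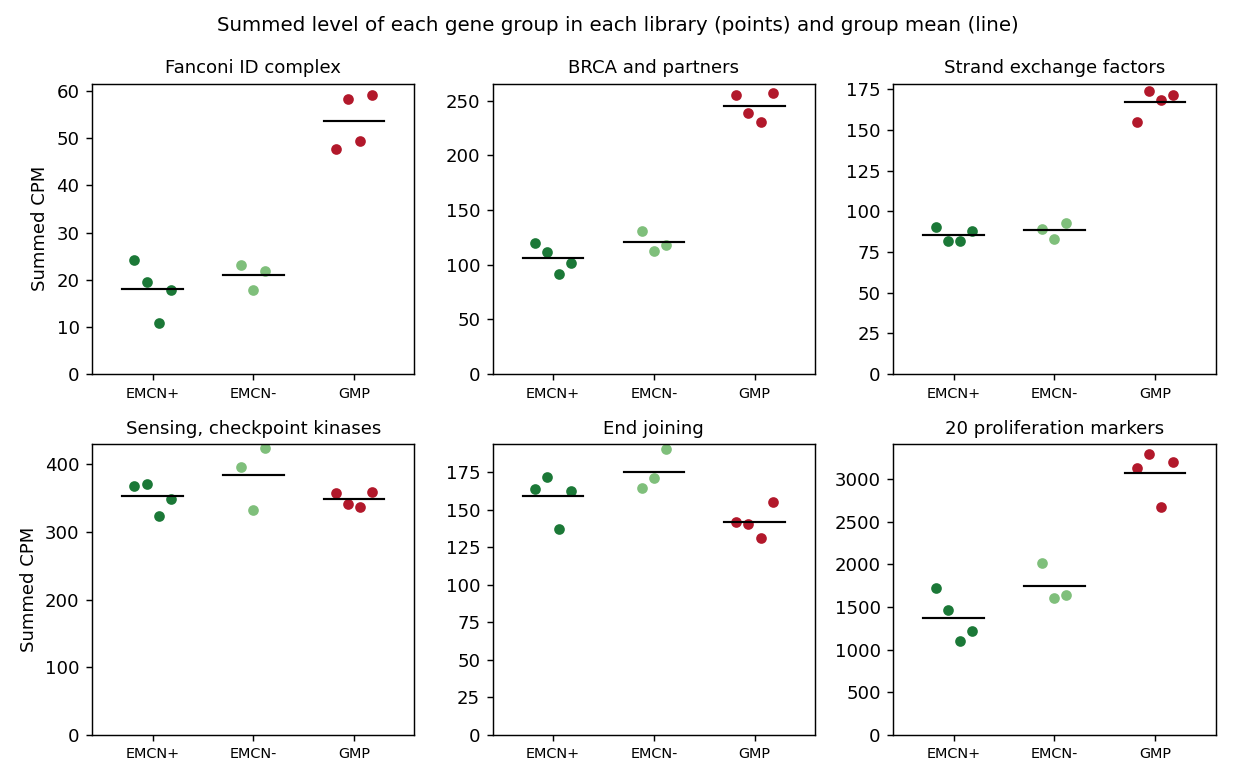
Summed CPM with TMM factors (linear axes from 0) of 5 groups of the repair genes and of 20 proliferation markers in each library, as points, with the group mean as a line. The ID, BRCA and strand exchange groups and the proliferation markers are lower in every LT-HSC library than in every GMP library, and the sums of the sensing and end-joining groups overlap between LT-HSCs and GMPs.

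EMCN+ and EMCN- LT-HSCs, the 2 stem cell fractions that the study set out to compare, showed no difference past the test in any of the 42 genes. By edgeR's quasi-likelihood test 0 of 42 had an adjusted p under 0.05, beside 1.96% of all 14915 genes, and DESeq2 and limma-voom also called 0. An unadjusted p under 0.05 was reached by 2 members, Exo1 and Brca2 (4.76%, beside 13.9% of all genes). The log2 differences, EMCN+ minus EMCN-, ran from -0.42 to 0.42 with a median of -0.13, beside 0 over all genes, and were negative for 30 genes and positive for 12. The 95% interval lay within 2-fold in either direction for 37 of the 42 genes and within 1.5-fold for 16. The number of all genes called fell from 293 to 55, 105, 194, 184 and 191 without EMCN- replicate 1, EMCN+ replicate 2, EMCN- replicate 2, EMCN+ replicate 4 and EMCN- replicate 4, and no member was called when any 1 of the 11 libraries was left out.

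**Figure D5:**
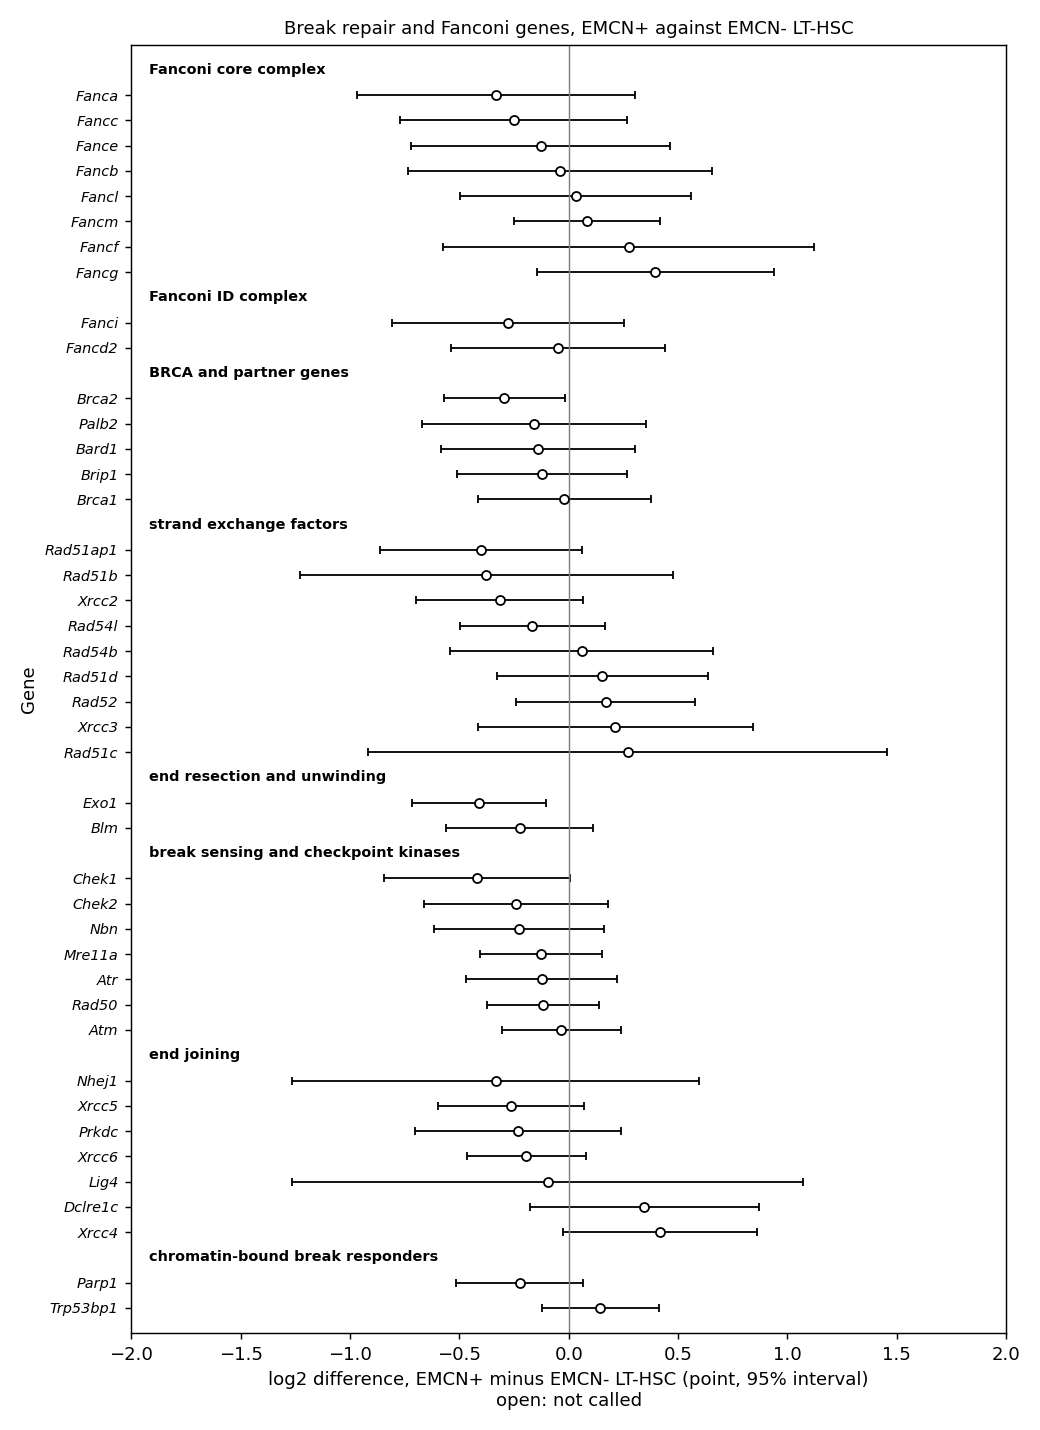
Log2 difference between EMCN+ (4 libraries) and EMCN- (3 libraries) LT-HSCs for each of the 42 genes under TMM scaling, grouped by role, with 95% intervals; open points did not pass the edgeR test. All 42 points are open and lie between -0.42 and 0.42, and the intervals are widest for Rad51c and Lig4, which have low counts.

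The 4 genes with the smallest p were Exo1, Brca2, Chek1 and Xrcc4. Exo1 had 29.2, 26.8, 18.6 and 24.2 CPM in EMCN+ replicates 1 to 4 and 34, 34.1 and 30.5 CPM in EMCN- replicates 1, 2 and 4. Every EMCN+ library lay below every EMCN- library, and in each of the 3 mice with both fractions the EMCN+ value was the lower, with a log2 difference of -0.41 ± 0.15 (SE) and an edgeR adjusted p of 0.181 (0.0982 to 0.472 over 22 alternatives). Brca2 had 49.5, 51.7, 36 and 42.8 CPM in EMCN+ and 54.5, 49.1 and 63 CPM in EMCN- libraries. The ranges overlapped through EMCN- replicate 2, and the log2 difference was -0.29 ± 0.13 (SE) with an edgeR adjusted p of 0.318 (0.230 to 0.651).

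Chek1 had 15.3, 11, 10.9 and 11.5 CPM in EMCN+ and 18.7, 15.3 and 14.8 CPM in EMCN- libraries, lower in EMCN+ in 3 of 3 mice. Its ranges overlapped through EMCN+ replicate 1, and the log2 difference was -0.42 ± 0.20 (SE) with an edgeR adjusted p of 0.370 (0.210 to 0.757). Xrcc4 had 14.8, 17.1, 15.4 and 14.9 CPM in EMCN+ and 8.11, 14 and 12.9 CPM in EMCN- libraries, higher in EMCN+ in 3 of 3 mice. The groups did not overlap, and the log2 difference was 0.42 ± 0.21 (SE) with an edgeR adjusted p of 0.400 (0.225 to 0.858). In all, every EMCN+ library lay below every EMCN- library in 3 genes, Exo1, Xrcc2 and Chek2 (6.99% of all genes did so), and above in 1, Xrcc4 (7.25% of all genes).

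Xrcc5, the gene with the largest rise against GMPs, had 29.9, 29.1, 23.4 and 32.8 CPM in EMCN+ and 35.6, 31 and 37.1 CPM in EMCN- libraries, with overlapping ranges and a 95% interval of -0.60 to 0.07 on the log2 scale. The interval for Fancd2 was -0.54 to 0.44, for Brca1 -0.41 to 0.38 and for Atm -0.31 to 0.24. Medians by role were -0.32 for the 2 resection and unwinding genes, -0.16 for the ID complex, -0.14 for the BRCA group, -0.0400 for chromatin-bound responders, -0.00427 for the core complex, -0.13 for sensing and checkpoint kinases, where 7 of 7 values were negative, -0.19 for end joining and 0.06 for the strand exchange group. With total-count scaling Atm, Fancd2 and Brca1 turned to 0.07, 0.06 and 0.09, none past the test.

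Proliferation markers summed to 1717, 1470, 1096 and 1215 CPM in EMCN+ replicates 1 to 4 and to 2013, 1605 and 1636 CPM in EMCN- replicates 1, 2 and 4. By edgeR 2 of the 20 were called lower in EMCN+ (10%, beside 1.96% of all genes called in either direction). Of the 20 log2 differences 19 were negative, with a median of -0.42, while 50.0% of all genes had a positive value. The part of these markers in the values above was not tested. Leaving out EMCN+ replicate 1 turned the count of 2 into 6, leaving out EMCN- replicate 1 gave 0, and it was 1 after removal of any of EMCN+ replicates 2, 3 and 4, EMCN- replicates 2 and 4, and GMP replicates 3 and 4. It was 1 with RLE factors, total-count scaling or limma-voom, 7 with no low-count filter, 6 in the blocked fit of complete pairs and 5 among protein-coding genes alone. The 10 LT-HSC markers summed to 1373 to 1644 CPM in EMCN+ and 1017 to 1257 CPM in EMCN-, and the 6 megakaryocyte markers to 24.1 to 37.8 and 64.1 to 102.2 CPM, with no overlap in either list. The 10 GMP markers (45.8 to 53.7 CPM in EMCN+, 78.2 to 80.9 CPM in EMCN-) and the 8 endothelial markers (244 to 346 CPM, 173 to 197 CPM) also did not overlap. By edgeR 1 of the 10 GMP markers was called higher in EMCN+ and 1 lower. The 7 erythroid markers in the table summed to 373 to 465 CPM in EMCN+, 436 to 523 CPM in EMCN- and 35.1 to 60.1 CPM in GMPs, mostly through Car2, with Gata1 and Car1 called lower in EMCN+. Of the 6 erythroid markers tested, 2 were called higher in LT-HSCs than in GMPs and 3 lower, with a median log2 difference of -1.46. The part of these lists was not tested either. Of the 72 other pathway genes 0 were called by edgeR, beside 1.96% of all genes. An unadjusted p under 0.05 was reached by 16 of the 72, beside 13.9% of all genes. With mouse as a block 1 was called in all libraries (beside 2.51% of all genes) and 5 in complete pairs (beside 6.76%), all lower in EMCN+. Rbbp8, which starts resection with MRN, was closest at -0.49 ± 0.14 (SE), edgeR adjusted p = 0.0688, with means of 27.3 CPM in EMCN+ and 38.6 CPM in EMCN-, and passed the test without EMCN+ replicate 1 (adjusted p = 0.0494) or EMCN- replicate 2 (0.0259) and among protein-coding genes alone (0.0329). Tipin followed at -0.49 ± 0.14 (SE), edgeR adjusted p = 0.0830, and passed the test with mouse as a block (-0.54, adjusted p = 0.0276), without EMCN+ replicate 3 (0.0308), with no low-count filter (0.0449) and among protein-coding genes alone (0.0355).

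The promoters of the genes were searched for 3 sequence strings as a description of what the members share. RefSeq's table on GRCm38.p6 held 34 of the 42 genes at 38 start sites, and the 250 bases before each start were read on both strands; Fancd2, Rad54b, Xrcc2, Exo1, Rad51d, Prkdc, Rad50 and Nbn had no entry. An E2F string (TTTCCCGC, TTTCGCGC, TTTGCCGC or TTTGGCGC) occurred at 5 of the 38 starts (13.2%), beside 1.86% of all 32851 starts and 2.35% of those of protein-coding genes. The 5 genes were Brca2, Bard1 and Fancg, which fell in LT-HSCs under TMM scaling, and Chek2 and Xrcc6, which were not called. That is 3 of 17 genes called lower, 0 of 5 called higher and 2 of 12 not called. The CCAAT box occurred at 20 starts (52.6%, beside 33.8% of all starts), and the CHR string (TTCGAA or TTTGAA), known from genes of late cell cycle phases, at 2 (5.26%, beside 17.1%). No string of 1 kind contains one of another, and a match is a string of letters, not a measured binding site.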

How the data were processed

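RNA of sorted mouse bone marrow cells went into a stranded total RNA library kit for very low input (SMARTer, Pico), per the labels' protocols, while the labels give the molecule as polyA RNA. What the authors deposited are estimated counts for each gene and library, for which the submitters' processing notes list cutadapt and Salmon. Sources used here give no versions, genome build, annotation or strand setting for them. The estimated counts, whole numbers as deposited, were rounded as a safeguard, and the 11 libraries were grouped by title. Of 54347 identifiers 54094 matched GENCODE M21 (GRCm38) without and 53307 with the version number.

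A filter by group (filterByExpr, minimum count 10) kept 14915 genes. EdgeR 4.0.16 under R 4.3.3 fitted all libraries in 1 model with TMM factors, robust quasi-likelihood and no mouse term, and Benjamini-Hochberg adjustment ran over all genes at a threshold of 0.05. In LT-HSC against GMP the 7 LT-HSC libraries had equal weight. The script was tested on simulated counts. Between the EMCN fractions it recovered 16.7% of 1.5-fold, 47.5% of 2-fold and 70.3% of 4-fold changes. For LT-HSC against GMP the shares were 25.8%, 63.1% and 85.9%. Many changes of 2-fold or less would thus be missed between the EMCN fractions. Replicates of a group differed beyond sampling (chi-square per degree of freedom 8.09 to 33.6), and the floor of 3 counts covers counting error only.

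Mouse numbers pair libraries of 1 animal. Deviations from the group means correlated at 0.165 to 0.223 across genes between EMCN+ and EMCN- libraries of the same mouse (3 pairs), and at a mean of -0.0657 between different mice (9 pairs).

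Alternatives were RLE factors, total-count scaling, no low-count filter, 5 CPM in 3 libraries, DESeq2 1.42.0, limma-voom (limma 3.58.1), mouse as a block, LT-HSC libraries alone, complete pairs alone, an unweighted LT-HSC mean and each library left out, and, chosen after seeing the data, protein-coding genes alone under both scalings. The members and lists were chosen with earlier results of these data known, and 1 gene of the pathway list is not reported here. For up to 12 called members per direction with the smallest p against GMPs, each GMP library and the range and median of the LT-HSC libraries are given. Values per LT-HSC library are given for the 4 smallest p between EMCN fractions. For some other members, chosen after their values were seen, values per library or ranges are given. Up to 4 called pathway genes per direction are named, or 2 where none was called. BLAST 2.17.0 found no near copy, in another gene, of the longest coding transcript of a member (0 of 42 at 200 bases and 95% identity). Other transcripts of the members were not searched, so exons shared with another gene, as between Rad54b and Fsbp, can be missed. Promoters are RefSeq's on GRCm38.p6.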

Additional observations from a re-analysis of the deposited data

Results flagged for a closer look

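A single library stood far from the others of its group in 4 of 84 groups of 4 libraries, each time by a gap that was most of the group's range; chance alone gives this in about 1 in 20 groups. Fancg had 12 CPM in GMP replicate 1, with the other GMP libraries at 8.65 to 8.98 CPM. Chek1 had 15.3 CPM in EMCN+ replicate 1, with the others at 10.9 to 11.5 CPM, and Nhej1 had 3.08 CPM in the same library, with the others at 1.56 to 1.67 CPM. Rad54b had 5.37 CPM in EMCN+ replicate 2, with the others at 7.91 to 8.01 CPM.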

How the results depend on the processing

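No member was called between the EMCN fractions under any of 22 alternatives. The number of all genes called there, 293 in the fit reported, was 529 with no low-count filter, 451 with DESeq2, 908 in complete pairs with mouse as a replicate block, 465 for protein-coding genes alone, 443 for these with total-count scaling, and 55 to 338 when each library was left out. Against GMPs, 14 of the 27 member calls held in all 21 alternatives and 22 in all but the total-count scalings; with mouse as a block 6 members were higher and 20 lower, the call of Xrcc3 was lost, and no other member call changed. Total-count scaling moved the counts to 16 higher and 9 lower, beside 9063 and 1907 of all 14915 genes. Total-count scaling of protein-coding genes alone gave 12 higher and 16 lower, beside 6443 and 2561 of 11898 genes. Leaving out each library gave 5 to 6 higher and 18 to 24 lower. Against GMPs total-count scaling turned the log2 differences of Fancc (0.43), Fancf (0.38), Fancg (0.20), Fancm (0.15), Xrcc3 (0.22), Exo1 (0.13), Mre11a (0.72), Nbn (0.67), Atr (0.61), Chek1 (0.32), Chek2 (0.51), Dclre1c (0.43) and Parp1 (0.68) positive. With protein-coding genes alone this held for Fancc (0.0448), Mre11a (0.34), Nbn (0.27), Atr (0.23), Chek2 (0.11), Dclre1c (0.0542) and Parp1 (0.30). Total-count scaling also gave calls for Rad50 (0.79), Xrcc6 (0.81) and Prkdc (0.79), and with protein-coding genes alone for Rad50 (0.40) and Xrcc6 (0.42). Values near 0 changed sign for Rad50 (-0.0164 with mouse as a block, -0.0181 for protein-coding genes alone) and Prkdc (-0.0314 with limma-voom, -0.0456 with mouse as a block, -0.0191 for protein-coding genes alone). When each library was left out Rad50 ran from -0.0635 to 0.0441, Xrcc6 from -0.0520 to 0.10 and Prkdc from -0.0873 to 0.10. Between the EMCN fractions Fancd2 turned to 0.0635 with total-count scaling, 0.0124 with mouse as a block, 0.0673 in complete pairs with the block and 0.00397 for protein-coding genes with total-count scaling. Brca1 turned to 0.00163 with RLE factors and to 0.0902, 0.0545, 0.0599 and 0.0311 under the settings given for Fancd2, in the same order. Atm turned to 0.0721 with total-count scaling, 0.0241 in complete pairs with the block and 0.0148 for protein-coding genes with total-count scaling. Left-out libraries gave -0.23 to 0.10 for Fancd2, -0.20 to 0.14 for Brca1 and -0.11 to 0.12 for Atm. The cause was not tested. Apart from these, 7 members had a mean under 5 CPM in LT-HSCs, and an effect of depth was not tested.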

Other observations

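A ratio within a library did not separate the populations for every related pair. Rad54b over Rad54l, the 2 motor proteins of strand exchange, was 0.244 to 0.774 in LT-HSC libraries and 0.513 to 0.652 in GMP libraries, and Brca1 over Bard1, which form a heterodimer, was 1.49 to 2.75 in LT-HSCs and 1.93 to 2.52 in GMPs. Rad51d over Xrcc2, which sit in the same complex, was 0.939 to 1.94 in LT-HSCs and 0.251 to 0.735 in GMPs, with no overlap. These pairs were chosen after the values were seen.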
